A study of Mus musculus with 6 samples.

Results

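The genes described here are 45 components of the Wnt/β-catenin pathway in mouse MLL-AF9 leukemia cells, chosen by name: Wnt receptors, secreted antagonists, and the proteins that destroy, stabilise or partner β-catenin. All 45 symbols were found once each among the 46983 gene rows of the deposited count table. The table held 3 libraries from Alox5-/- cells and 3 from wild-type (WT) cells. Per the labels, both groups began as bone marrow Lin-Sca-1+c-Kit+ (LSK) stem and progenitor cells, double-sorted by flow cytometry, from C57BL/6J Alox5-/- or C57BL/6J WT donors. Both carried the retroviral MLL-AF9 fusion oncogene, which drives acute myeloid leukemia, and neither was treated. GFP+ transduced cells had been transplanted into irradiated C57BL/6J recipients. The labels call the 3 libraries of a group biological replicates, but the sources used here do not say whether they came from separate recipients, nor which part of Alox5 was altered, nor the animals' age. P-values therefore measure only the spread between these libraries, which may be technical.

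Wnt proteins are lipid-modified in the secreting cell, escorted to its surface, and bind a Frizzled receptor together with the co-receptor LRP5 or LRP6. Without a Wnt signal, a complex built on AXIN and APC holds β-catenin while the kinases CK1 and GSK3 mark it for degradation. With a signal, Dishevelled and the receptors recruit AXIN, β-catenin accumulates, enters the nucleus and turns TCF/LEF factors from repressors into activators. In MLL-rearranged leukemia, β-catenin is known as a requirement of leukemic stem cells.

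Library sizes were 28985597 to 38695948 gene counts, so a count of 0 in a library allows a level of up to 0.0786 to 0.103 CPM (counts scaled to library size with TMM factors). Such limits and the counting intervals given below cover counting error only. Alox5 itself, which encodes 5-lipoxygenase, was at 65.6, 62.1 and 64.9 CPM in Alox5-/- replicates 1 to 3 and at 102, 106 and 106 CPM in the WT replicates, lower in every Alox5-/- library but still detected. Of the genes behind the LSK sort, Kit was abundant, at 136 CPM in Alox5-/- libraries and 160 CPM in WT, whereas Ly6a, which encodes Sca-1, was at only 0.763 ± 0.158 and 1.06 ± 0.169 CPM (SD, n = 3 each). The summed levels of 10 T cell genes were 31.0 to 38.2 CPM in the Alox5-/- cells and 6.73 to 8.87 CPM in WT, and nearly all of this came from Thy1, since 5 of the 10, among them Cd3e, Cd3g and Trbc1, were at 0 in all 6 libraries. Summed B cell genes (1.505 to 1.96 against 1.48 to 2.28 CPM) and erythroid genes (0.706 to 0.786 against 0.673 to 0.865 CPM) overlapped between the groups. Of the 2 tested B cell genes, Vpreb1 was called lower and Cd79b was not called. Vpreb1 had 8, 3 and 9 counts in Alox5-/- and 22, 16 and 25 in WT, and passed the filter through its WT counts alone. In bulk RNA, fewer cells of a type and less RNA per cell cannot be told apart. Myeloid genes summed to 849 to 930 CPM in Alox5-/- libraries and 1021 to 1130 in WT, 1 of the 6 (Fcgr3) rising and 4 (Mpo, Itgam, Elane and Cebpa) falling. LSK and progenitor genes summed to 380 to 391 and 343 to 354 CPM. Of the 4 tested LSK and progenitor genes, Cd34 and Flt3 rose, Kit fell and Ly6a was not called. The part of such cell composition in the results below was not tested. Alox5-/- replicate 2 stood farthest from the others of its group.

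Most of the pathway was present and differed little between the genotypes, with a few large differences at the cell surface. The largest rise was in Frzb, a secreted Wnt antagonist (4.84-fold), and the falls beyond 1.5-fold were in the ubiquitin ligase Rnf43 and the receptors Fzd5, Fzd6 and Fzd8. Tle2, a corepressor, was the other gene to rise by more than 1.5-fold. Of the 45 genes, 39 passed the filter on low counts, 15 of them rose, 13 fell and 11 were not called (edgeR quasi-likelihood test, adjusted p under 0.05 over all genes). Among all 13705 tested genes, 53.8% were called, 26.8% higher and 27.0% lower; the 28 called pathway genes were 71.8% of those tested. The sizes were close to those of the transcriptome: the median absolute log2 fold change was 0.20 over the 39 genes and 0.19 over all tested genes, and the signed medians were 0.05 and 0.00. A called difference of at least 1.5-fold was found in 6 pathway genes (15.4%), against 11.5% of all tested genes: 2 were higher, beside 7.60% of all tested genes, and 4 lower, beside 3.94%. Of these 4, Fzd6 and Fzd8 passed the filter through WT alone. Further, 13 of the 28 calls were of less than 1.2-fold, a share that was not worked out over all tested genes. For 29 pathway genes (74.4%) no Alox5-/- library fell within the WT range or the reverse, against 60.0% of all tested genes. Fzd6 and Fzd8 were among these 29 and among the 28 called, so both counts depend in part on that selection.

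The differences had no common sign with respect to signalling. Among 20 tested genes whose products promote β-catenin signalling, 8 rose and 8 fell (80% called). These 8 falls include Fzd6 and Fzd8, which passed the filter through WT alone. Among 16 tested genes whose products restrain it, 6 rose and 5 fell (68.8% called). Over all tested genes 53.8% were called, also split evenly into 26.8% higher and 27.0% lower, and the differences from these shares were not tested. Of the 3 whose products can do either (Aes, Amer1, Tcf7), Aes rose and the others were not called.

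**Figure D1:**
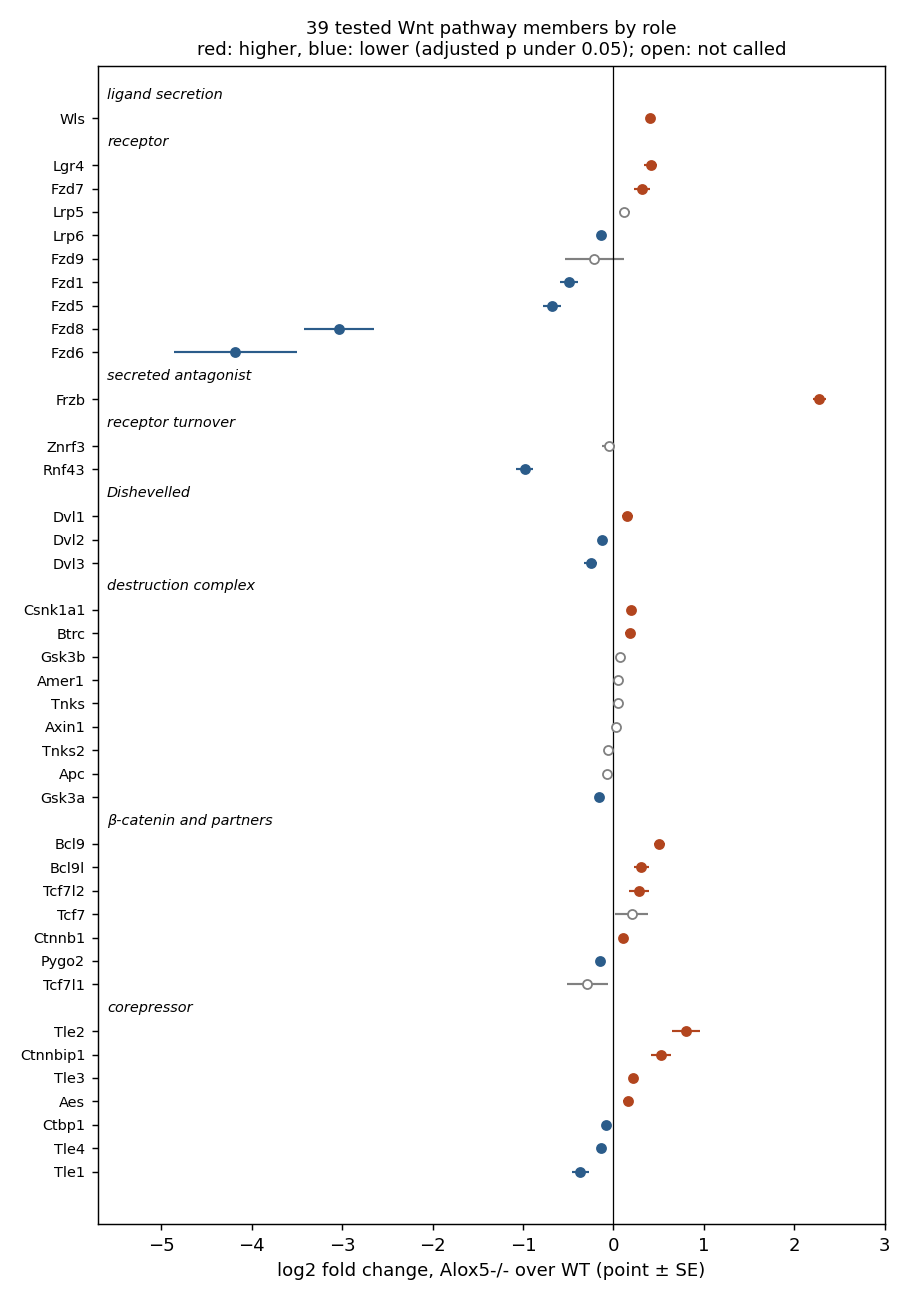
Log2 fold change of Alox5-/- over WT (x axis, point ± SE) for the 39 tested genes, grouped by role; red points were called higher, blue lower, and open points were not called. Frzb lies at 2.28, Fzd8 and Fzd6 at -3.04 and -4.18 with wide errors, and every tested gene of the destruction complex lies between -0.15 and 0.19.

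Levels per kilobase of exon ranged from 0 to 77.0 CPM per kb in WT cells. The 5 highest were Aes (77.0 ± 4.80 CPM per kb), Ctnnb1 (59.6 ± 0.378), Gsk3a (42.5 ± 1.76), Csnk1a1 (41.2 ± 1.23) and Ctbp1 (33.1 ± 0.919), all SD with n = 3. Gsk3a and Csnk1a1 lie within their spread of each other, while the steps from Aes to Ctnnb1 to Gsk3a are larger than the SDs. The co-receptor Lrp6, the highest receptor gene, stood at 11.1 ± 0.381 CPM per kb, near Gsk3b (10.5 ± 0.489) and above Apc (5.52 ± 0.227) and Btrc (1.29 ± 0.0381), and no Frizzled gene exceeded the 2.64 ± 0.275 CPM per kb of Fzd1. The TCF/LEF factors were scarce, with Tcf7l2 at 0.669 ± 0.0436, Tcf7 at 0.442 ± 0.0495 and Tcf7l1 at 0.211 ± 0.0209 CPM per kb.

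**Figure D2:**
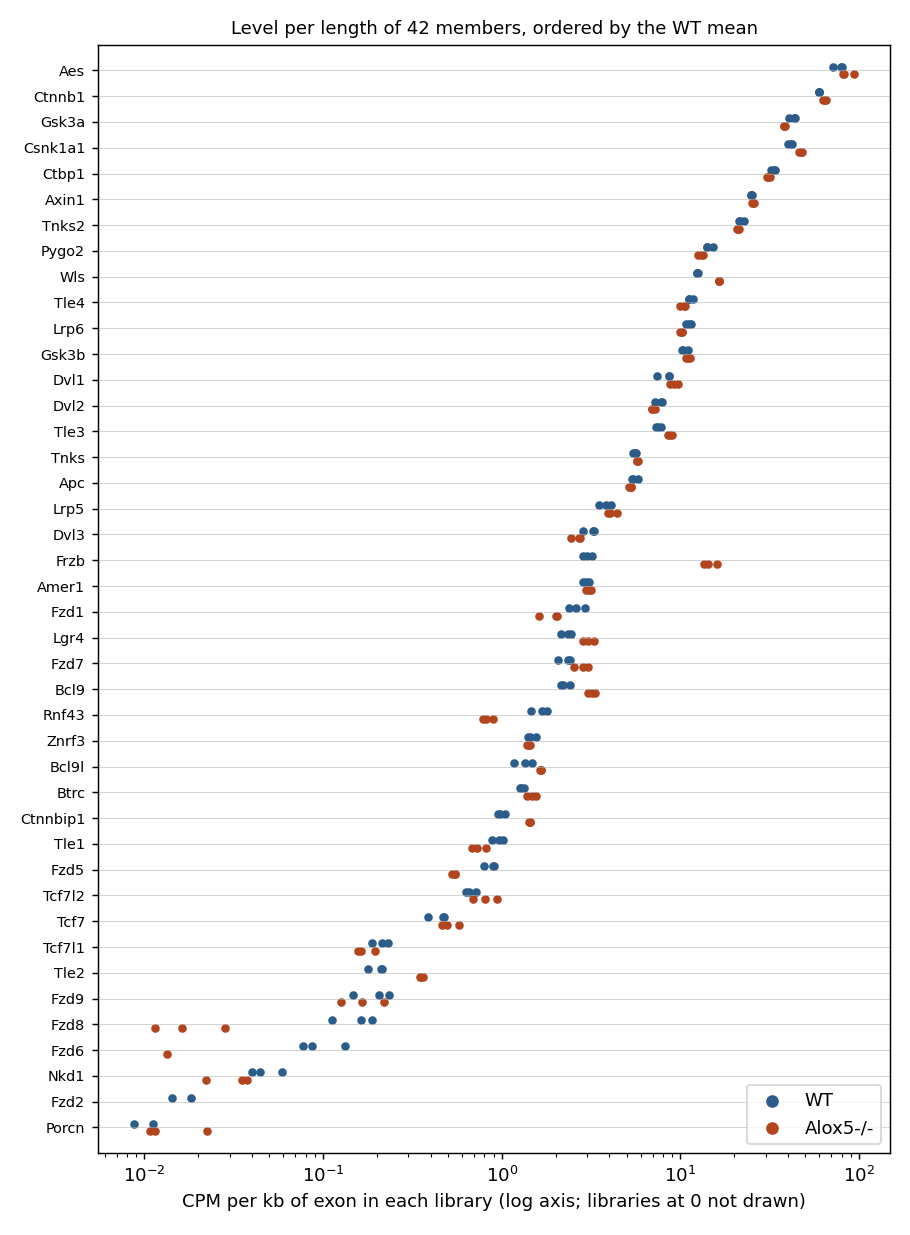
Level per kilobase of exon in each library (x axis, CPM per kb, log scale) for the 42 genes with at least 1 count, ordered by the WT mean; blue points are WT and red points Alox5-/- libraries, and libraries at 0 are not drawn. Frzb, Fzd6, Fzd8, Rnf43 and Tle2 show the clearest gaps between colours, and the Frizzled and TCF/LEF genes fill the lower part.

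For 6 genes the counts were too low to test. Lef1, which encodes a TCF/LEF factor strongly induced by Wnt in many tissues, Axin2, the AXIN paralog that is a classical feedback target, and Sfrp1, a secreted antagonist, had no count in any of the 6 libraries. Each therefore lies at or below 0.0786 to 0.103 CPM, the limit of a count of 0. Porcn, which encodes the acyltransferase that lipid-modifies Wnt proteins, had 1, 1 and 2 counts in Alox5-/- and 1, 0 and 1 in WT. Fzd2 had 0 counts in each Alox5-/- library and 2, 0 and 2 in WT, and both genes were under the limit of a count of 0 in every library. Nkd1, an inhibitor of Dishevelled and another feedback gene, had 5, 5 and 3 counts in Alox5-/- and 6, 8 and 7 in WT, a WT to Alox5-/- ratio of 1.49 with a 95% counting interval of 0.712 to 3.24.

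Wls, the carrier that escorts Wnt proteins to the cell surface, rose. It was at 144, 144 and 145 CPM in Alox5-/- replicates 1 to 3 and at 110, 109 and 109 CPM in WT, a log2 ratio of Alox5-/- to WT of 0.40 (SE 0.03; adjusted p = 5.39e-08 by edgeR). The libraries within a genotype differed by less than 2 CPM, and the groups were far apart. The ligands themselves were nearly silent: of 19 Wnt genes, 9 had no count at all and 2 passed the filter. Wnt5b fell, from 1.46 ± 0.281 CPM in the WT libraries to 0.655 ± 0.132 CPM (log2 ratio -1.16, SE 0.23; adjusted p = 0.000534 by edgeR), and Wnt10b was not called (0.800 against 0.823 CPM).

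The Frizzled receptors, which bind Wnt through a cysteine-rich domain, did not move as a family. Fzd1, Fzd5, Fzd6 and Fzd8 fell, Fzd7 rose and Fzd9 was not called. Fzd1 was at 6.80, 8.51 and 8.41 CPM in the Alox5-/- cells and at 10.04, 12.3 and 10.9 CPM in WT (log2 ratio -0.49, SE 0.10; adjusted p = 0.000684 by edgeR). Fzd7 went the other way, with 11.5, 13.7 and 13.0 CPM in Alox5-/- against 10.6, 10.9 and 9.30 CPM in WT (0.32, SE 0.09; adjusted p = 0.00569 by edgeR). For both genes the lowest library of the higher group still lay above the highest of the lower group, by a narrow margin for Fzd7. Fzd5 was at 3.79, 3.62 and 3.80 CPM in Alox5-/- libraries and 6.26, 5.52 and 6.18 CPM in WT, a 1.60-fold fall (log2 ratio -0.68, SE 0.10; adjusted p = 3.60e-05 by edgeR). An opposite-strand gene covers 17.8% of the Fzd5 exons, and because the strand setting of the counting is not given, reads from that stretch cannot be assigned with certainty.

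Fzd6 and Fzd8 had the deepest falls at the lowest levels. Fzd6 had 2, 0 and 0 counts in Alox5-/- and 19, 11 and 16 in WT, a WT level 21.2 times that of Alox5-/- with a 95% counting interval of 5.55 to 180. Fzd8 had 3, 2 and 5 counts in Alox5-/- and 20, 29 and 43 in WT, a ratio of 8.48 with an interval of 4.41 to 18.3. Every WT library was above every Alox5-/- library for both genes (adjusted p = 0.000102 by edgeR for Fzd6 and 1.01e-05 for Fzd8). Both passed the filter through their WT counts alone. Their p-values and lack of overlap are therefore not independent of that selection and give no separate support for a fall. Fzd9, at 0.390 ± 0.109 and 0.448 ± 0.102 CPM, had overlapping libraries.

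Set against each other per length, Fzd7 was the most abundant Frizzled transcript in every Alox5-/- library and Fzd1 in every WT library, though by under 1 percentage point in WT replicate 1. Without division by length, Fzd7 stood above Fzd1 in WT replicate 1 (33.7 against 31.9%). Over all 10 Frizzled genes, Fzd7 made up 45.8, 46.2 and 44.2% of the summed level per kb in Alox5-/- and 36.0, 34.2 and 31.8% in WT. Fzd1 made up 29.3, 30.9 and 30.9% in Alox5-/- and 36.8, 41.9 and 40.2% in WT. Fzd4, from outside the 45 genes, rose from 2.63 to 4.96 CPM (log2 ratio 0.91, SE 0.14; adjusted p = 4.68e-05 by edgeR), and its share went from 5.87 ± 0.836% to 11.9 ± 0.384%. The summed level of all 10 Frizzled genes was 6.19 ± 0.577 CPM per kb in Alox5-/- and 6.65 ± 0.312 in WT, with overlapping libraries. For the 7 Frizzled genes among the 45 it was 5.43 ± 0.500 and 6.23 ± 0.257 CPM per kb. That sum was lower in every Alox5-/- library (4.85 to 5.76 against 6.03 to 6.52). The make-up of the family thus differed, while a difference in its total depended on the genes summed. A share falls when another member rises, so these shares are not independent of each other and were not tested.

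The stretches just upstream of the start sites of Fzd1, Fzd7 and Lgr4, receptors that moved in different directions, and of Axin2, which had no count, are shown for comparison. Each line gives the 250 bases before the RefSeq start site (GRCm38.p6, the mm10 assembly), 5′ to 3′ on the gene's strand, and capitals mark a TCF/LEF match, defined as the letters CTTTG followed by a pair of A or T letters in any order (AA, AT, TA, TT), on either strand. The Fzd1 window is chr5:4758217-4758466 (minus strand), that of Fzd7 chr1:59481897-59482146, that of Lgr4 chr2:109917397-109917646 and that of Axin2 chr11:108920099-108920348 (plus strand for these 3). None of the 4 windows holds an annotated exon.
Fzd1: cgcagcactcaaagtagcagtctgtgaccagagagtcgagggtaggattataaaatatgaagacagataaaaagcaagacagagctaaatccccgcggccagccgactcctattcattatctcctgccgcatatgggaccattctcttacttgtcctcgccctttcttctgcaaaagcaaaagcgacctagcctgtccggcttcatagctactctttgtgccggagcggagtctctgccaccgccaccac
Fzd7: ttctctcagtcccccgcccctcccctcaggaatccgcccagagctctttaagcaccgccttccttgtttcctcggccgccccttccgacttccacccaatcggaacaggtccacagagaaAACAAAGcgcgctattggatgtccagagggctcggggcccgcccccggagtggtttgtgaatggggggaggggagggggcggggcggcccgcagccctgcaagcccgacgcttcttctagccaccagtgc
Lgr4: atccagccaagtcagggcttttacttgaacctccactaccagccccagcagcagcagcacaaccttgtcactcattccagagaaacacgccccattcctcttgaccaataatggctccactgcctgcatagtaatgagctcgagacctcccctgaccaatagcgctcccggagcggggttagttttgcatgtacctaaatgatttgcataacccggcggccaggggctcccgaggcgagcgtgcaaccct
Axin2: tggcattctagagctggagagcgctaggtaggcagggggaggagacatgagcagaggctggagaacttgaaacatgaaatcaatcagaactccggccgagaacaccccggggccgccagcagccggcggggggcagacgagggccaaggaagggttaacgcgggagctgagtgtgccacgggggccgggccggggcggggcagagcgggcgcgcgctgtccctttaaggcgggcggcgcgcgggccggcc
The Fzd7 window held 1 match, starting 130 bases before the start site, and the other windows held none. Among the 45 genes, 29 had entries in the RefSeq promoter table, and 4 of their 40 windows held a match, against 14.8% of all 32851 windows and 10.3% of the 11938 windows of tested genes. The other windows with a match belonged to Gsk3a, Tcf7l2 and Lef1. A match describes these letters only.

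The co-receptors and the R-spondin receptor Lgr4 differed modestly. Lrp6, the co-receptor that docks AXIN once phosphorylated, fell from 152 ± 5.20 to 138 ± 1.79 CPM (log2 ratio -0.14, SE 0.03; adjusted p = 0.0027 by edgeR). Lrp5, its relative, was at 40.3 ± 2.66 CPM in the Alox5-/- cells and 37.1 ± 2.76 CPM in WT, with overlapping libraries (adjusted p = 0.112 by edgeR). It was called higher on library totals alone (adjusted p = 0.0311), with no filter (0.0456) and without WT replicate 1 (0.0497). Lgr4, which binds R-spondins and thereby spares Frizzled from degradation, rose: 17.9, 16.8 and 19.3 CPM in Alox5-/- against 13.8, 14.4 and 12.6 CPM in WT (0.41, SE 0.07; adjusted p = 0.000191 by edgeR). Its relative Lgr6, not among the 45 genes, fell from 31.6 to 22.4 CPM (-0.49, SE 0.05; adjusted p = 1.90e-06 by edgeR), and Lgr5 had no count. Lgr4 thus made up 48.6, 46.2 and 50.01% of the summed LGR level per kb in Alox5-/- and 33.6, 33.7 and 32.7% in WT.

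**Figure D3:**
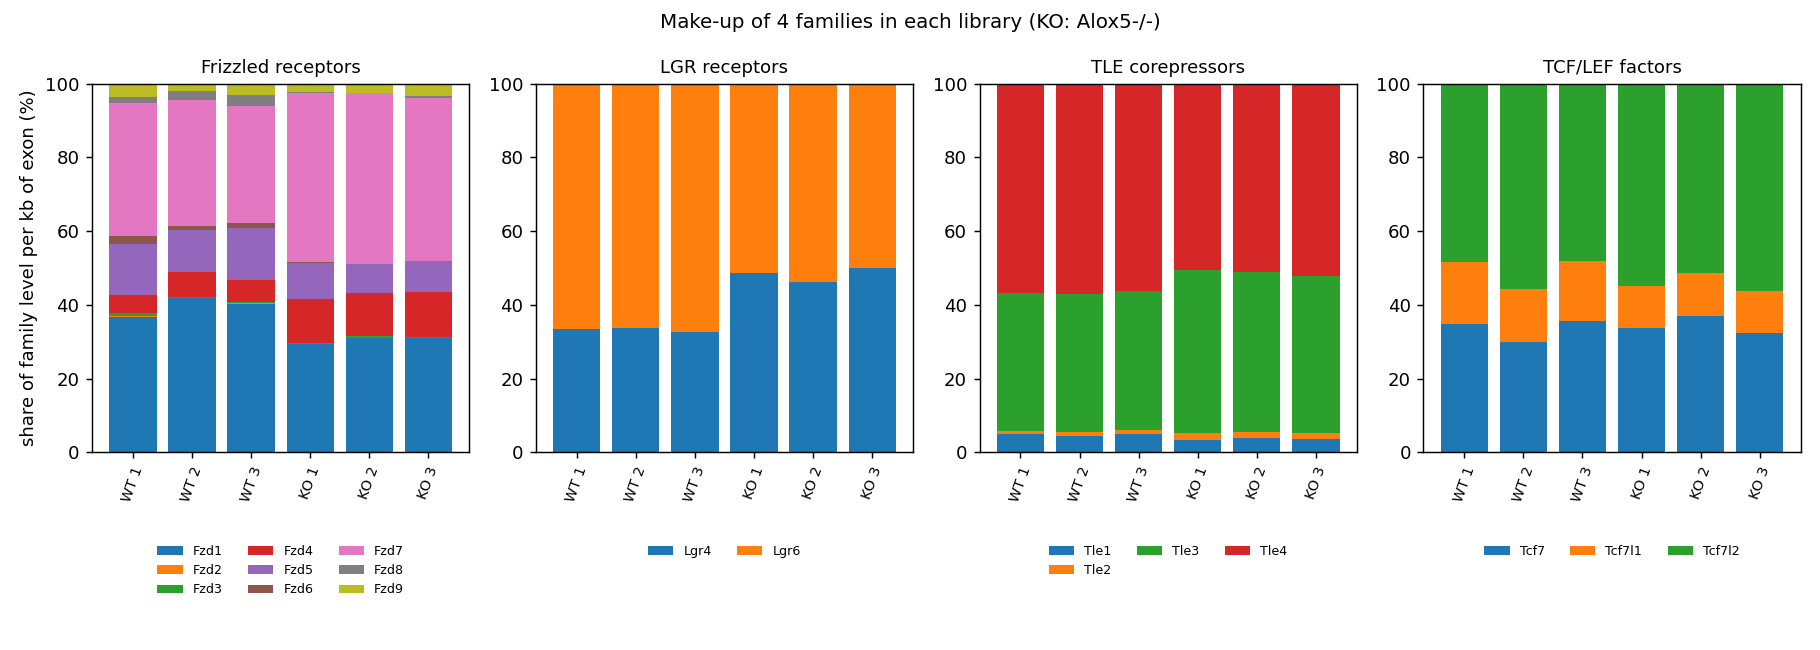
Share of each member (y axis, % of the family's summed CPM per kb of exon) in 4 families, one bar per library, WT at the left and Alox5-/- (KO) at the right of each panel. The Fzd7, Fzd4, Lgr4 and Tle3 segments are taller in the Alox5-/- bars, those of Fzd1, Fzd5, Lgr6 and Tle4 taller in WT, and the Tcf7 segments overlap between genotypes.

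Frzb, whose product resembles the Wnt-binding domain of Frizzled and sequesters Wnt outside the cell, showed the largest rise. It was at 44.1, 52.1 and 46.3 CPM in Alox5-/- replicates 1 to 3 and at 9.27, 9.76 and 10.3 CPM in WT (log2 ratio 2.28, SE 0.07; adjusted p = 3.39e-12 by edgeR). The lowest Alox5-/- library was more than 4 times the highest WT library, and a rise of at least 2-fold was not common: 4.57% of tested genes were called with a difference of at least 2-fold in either direction. Per length, Frzb stood at 14.7 ± 1.29 CPM per kb in Alox5-/-, above the 6.19 ± 0.577 CPM per kb of the 10 Frizzled genes together, and at 3.02 ± 0.158 in WT, below their 6.65 ± 0.312. Because Frzb is also a gene of stromal and cartilage cells, stromal markers are given beside it: their summed level was 207 to 212 CPM in Alox5-/- libraries and 184 to 187 in WT, mostly Pecam1, which is also expressed by blood cells. Of the 10 stromal and endothelial genes none was at 0 in all libraries and 3 were tested; Pecam1 and Pdgfrb, a mesenchymal receptor, were called higher. Pdgfrb was at 13.0 ± 1.27 CPM against 11.2 ± 0.797 CPM, with overlapping libraries (log2 ratio 0.22, SE 0.08; adjusted p = 0.0385 by edgeR). Lepr, another mesenchymal gene, had 7, 7 and 12 counts in Alox5-/- and 5, 0 and 3 in WT and was not tested. Col1a1, not called, had 14, 18 and 13 counts in Alox5-/- and 12, 9 and 18 in WT, and Pdgfra and Col3a1 had at most 1 count in any library. Others, also not tested, went the other way at very few counts. Cxcl12 had 0 counts in each Alox5-/- library and 1, 2 and 1 in WT. Col1a2 had 0 in each against 1, 0 and 1, and Kdr 0 in each against 0, 0 and 2. Cdh5 had 1, 1 and 1 counts in Alox5-/- and 1, 1 and 2 in WT. The part of such cells in the Frzb difference was not tested. Frzb spans 80411970 to 80447625 on chromosome 2 (minus strand, mm10) and shares no exon with another annotated gene.

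Rnf43 and Znrf3 encode membrane ubiquitin ligases that remove Frizzled from the surface, and only for Rnf43 was a difference called. Rnf43 was at 5.36, 5.88 and 5.18 CPM in the Alox5-/- cells and 11.7, 9.60 and 11.1 CPM in WT, a 1.98-fold fall (log2 ratio -0.98, SE 0.09; adjusted p = 5.37e-07 by edgeR). Znrf3 was at 11.1 ± 0.249 and 11.6 ± 0.658 CPM (-0.05, SE 0.07; adjusted p = 0.555 by edgeR). Rnf43 is a feedback target of the pathway, as are Axin2, Nkd1 and Lef1, which were at or near 0 in both genotypes. Whether the Rnf43 difference is tied to signalling through the pathway was not tested. Per length, Rnf43 made up 36.6, 39.4 and 35.4% of the pair in Alox5-/- and 55.5, 48.4 and 54.6% in WT, and the difference between the fold changes of the pair was not tested.

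**Figure D4:**
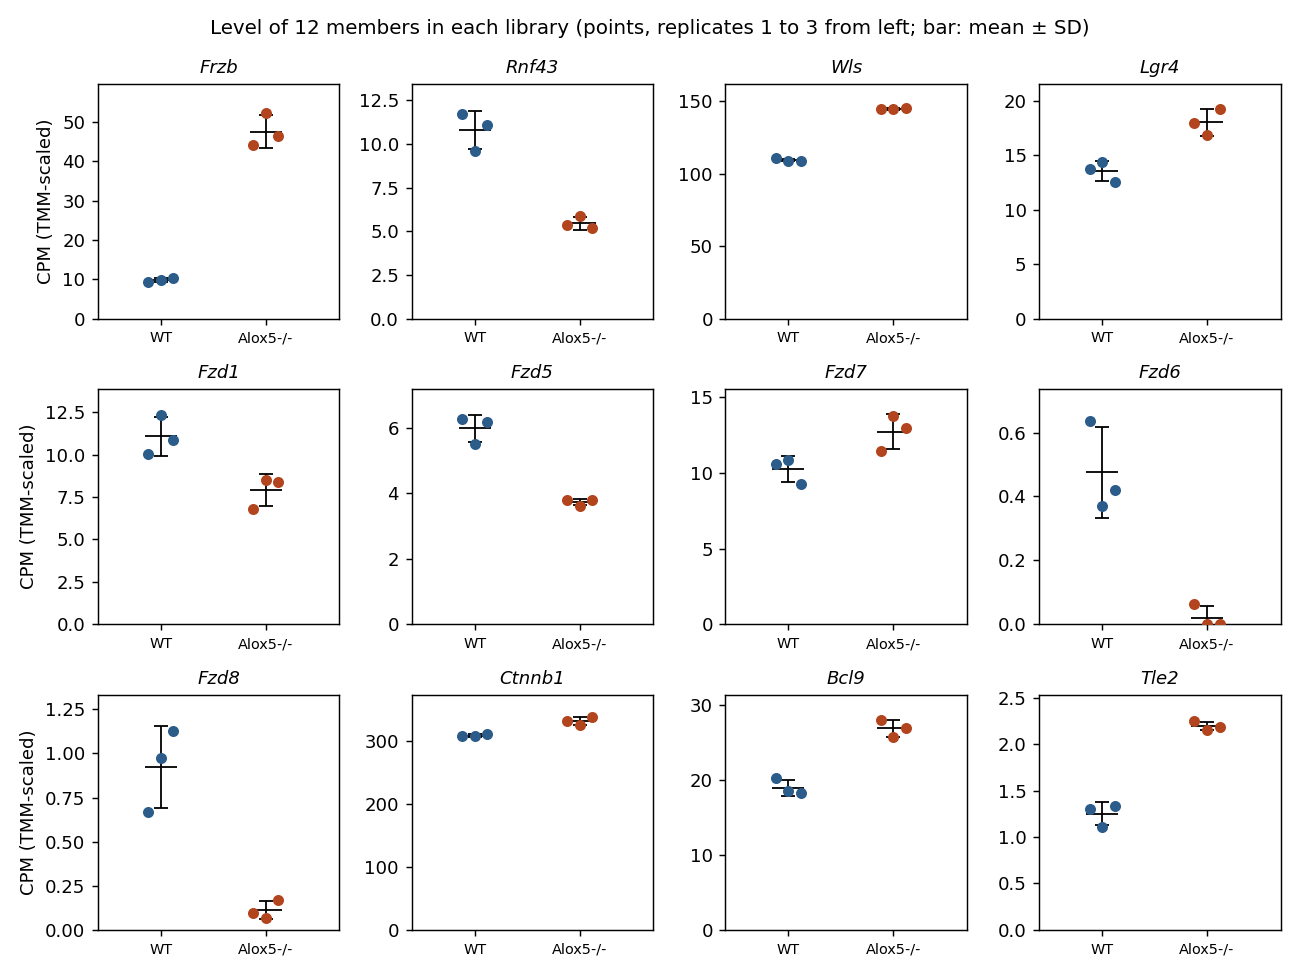
CPM in each library (points, replicates 1 to 3 from the left in each group) with the group mean ± SD (bars) for 12 genes; every y axis starts at 0. Frzb, Wls, Lgr4, Fzd7, Bcl9, Ctnnb1 and Tle2 are higher in all 3 Alox5-/- libraries, and Rnf43, Fzd1, Fzd5, Fzd6 and Fzd8 are lower in all 3.

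The Dishevelled genes, whose products link Frizzled to the destruction complex, were all called, by 1.19-fold at most. That is 3 of 3 tested, beside 53.8% called of all tested genes, a difference that was not tested. Dvl3 fell from 20.1 ± 1.62 to 16.9 ± 1.05 CPM (log2 ratio -0.25, SE 0.07; adjusted p = 0.00772 by edgeR). Dvl1 rose from 41.1 ± 3.56 to 45.9 ± 2.38 CPM (0.15, SE 0.06; adjusted p = 0.0396 by edgeR), but its call was lost without Alox5-/- replicate 1 (0.0756) or 2 (0.1) and without WT replicate 2 (0.168), and with the replicate block (0.0623). Dvl2 was at 43.6, 45.5 and 43.6 CPM in Alox5-/- libraries and 49.96, 45.2 and 49.3 CPM in WT, with Alox5-/- replicate 2 above WT replicate 2 (-0.13, SE 0.05; adjusted p = 0.0358 by edgeR). Its call was lost without Alox5-/- replicate 1 (0.104) or 3 (0.114), without WT replicate 1 (0.144) or 3 (0.121), with DESeq2 (0.0728), with the replicate block (0.0644), under both changed filters (0.053 and 0.0562), with upper-quartile scaling (0.0979) and on library totals alone (0.159), and 19.7% of its exons overlap other genes, mainly Acadvl.

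Differences in the destruction complex were small. Of its 9 tested genes, 2 rose, 1 fell and 6 were not called (33.3% called, beside 53.8% of all tested genes, a difference that was not tested), and all 9 lay within 1.14-fold. Csnk1a1, the priming kinase CK1α, rose from 433 ± 12.9 to 494 ± 7.98 CPM (log2 ratio 0.19, SE 0.03; adjusted p = 0.00013 by edgeR). Gsk3a fell from 123 ± 5.11 to 111 ± 0.776 CPM (-0.15, SE 0.04; adjusted p = 0.00205 by edgeR), while its paralog Gsk3b was at 109 ± 3.15 CPM in the Alox5-/- cells and 103 ± 4.80 CPM in WT and was not called (0.07, SE 0.04; adjusted p = 0.138 by edgeR). Gsk3b was called higher with upper-quartile scaling (0.0404), on library totals alone (0.0201) and without WT replicate 2 (0.0183), and 28.3% of the Gsk3a exons overlap a gene on the opposite strand. Btrc, the F-box protein that ubiquitinates phosphorylated β-catenin, rose from 21.8 ± 0.644 to 24.8 ± 1.46 CPM (0.18, SE 0.06; adjusted p = 0.0155 by edgeR), a call lost without Alox5-/- replicate 1 (0.0813) or WT replicate 1 (0.0576).

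The scaffolds Axin1 and Apc were not called, nor were Amer1, which binds APC at the membrane, and the tankyrases Tnks and Tnks2, which mark AXIN for degradation. Axin1 was at 97.1 ± 1.38 CPM in Alox5-/- libraries and 95.3 ± 0.587 CPM in WT (log2 ratio 0.03, SE 0.03; adjusted p = 0.502 by edgeR). Apc was at 84.4 ± 1.28 and 88.9 ± 3.66 CPM (-0.07, SE 0.04; adjusted p = 0.112 by edgeR). Amer1 had a log2 ratio of 0.05 (SE 0.05), Tnks 0.05 (SE 0.03) and Tnks2 -0.06 (SE 0.03). Tnks was called higher on library totals alone (adjusted p = 0.0319 by edgeR).

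β-catenin itself, Ctnnb1, rose by a small amount. It was at 333, 326 and 339 CPM in Alox5-/- replicates 1 to 3 and at 308, 308 and 311 CPM in WT, without overlap (log2 ratio 0.10, SE 0.03; adjusted p = 0.00842 by edgeR). This 1.07-fold difference was not called without Alox5-/- replicate 3 (0.0501). Exons of other genes, mainly Ulk4 on the opposite strand, cover 15.1% of the Ctnnb1 exons. The transcript does not measure the protein, which is set mainly by degradation.

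Of the nuclear partners, both BCL9 adaptors and Tcf7l2 rose, Pygo2 fell, and Tcf7 and Tcf7l1 were not called. Bcl9, the adaptor that bridges β-catenin to Pygopus, was at 28.0, 25.8 and 26.9 CPM in the Alox5-/- cells and 20.2, 18.6 and 18.2 CPM in WT, a 1.42-fold rise (log2 ratio 0.51, SE 0.06; adjusted p = 4.81e-06 by edgeR). Its paralog Bcl9l rose from 10.7 ± 1.27 to 13.2 ± 0.0753 CPM (0.31, SE 0.08; adjusted p = 0.0047 by edgeR). Pygo2, the Pygopus reader of methylated histone tails, fell from 52.4 ± 2.49 to 47.2 ± 1.47 CPM (-0.15, SE 0.05; adjusted p = 0.011 by edgeR), a call lost without Alox5-/- replicate 3 (0.0633) or WT replicate 3 (0.0727) and on library totals alone (0.0559).

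Tcf7l2 was called higher at the edge of the threshold, with 8.25, 6.02 and 7.03 CPM in Alox5-/- against 5.76, 6.30 and 5.55 CPM in WT (log2 ratio 0.28, SE 0.11; adjusted p = 0.0437 by edgeR). Its libraries overlapped, Alox5-/- replicate 1 being the highest. The call was lost without Alox5-/- replicate 1 (0.254) or 3 (0.0738), without WT replicate 1 (0.0964) or 3 (0.145), with DESeq2 (0.092), with limma-voom (0.055) and with the replicate block (0.0621). Tcf7 (1.34 ± 0.153 and 1.16 ± 0.130 CPM) and the mainly repressive Tcf7l1 (0.675 ± 0.0833 and 0.828 ± 0.0822 CPM) were not called, with log2 ratios of 0.20 (SE 0.18) and -0.29 (SE 0.23). The Tcf7l1 share of the family per length was 11.4 to 11.7% in Alox5-/- and 14.6 to 17.0% in WT, without overlap. Per length, Tcf7l2 was the most abundant of the family in every library, at 51.3 to 56.2% of its sum in Alox5-/- and 48.1 to 55.6% in WT.

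The corepressors of the TLE family, which sit on TCF in place of β-catenin, split into rising and falling members. Tle2 was at 2.25, 2.15 and 2.19 CPM in Alox5-/- libraries and 1.31, 1.11 and 1.34 CPM in WT, a 1.74-fold rise (log2 ratio 0.80, SE 0.16; adjusted p = 0.000478 by edgeR). Tle3 rose from 87.9 ± 2.38 to 102 ± 2.74 CPM (0.22, SE 0.04; adjusted p = 0.000137 by edgeR). Tle1 fell from 8.31 ± 0.555 to 6.46 ± 0.632 CPM (-0.37, SE 0.09; adjusted p = 0.00354 by edgeR), and Tle4 fell from 65.1 ± 1.86 to 59.0 ± 2.09 CPM (-0.14, SE 0.04; adjusted p = 0.00853 by edgeR), a call lost without Alox5-/- replicate 1 (0.0556) or WT replicate 1 (0.0511) and on library totals alone (0.0548). Tle3 and Tle4 made up nearly all of the family per length: Tle3 went from 37.5 ± 0.241% in WT to 43.4 ± 0.913% in Alox5-/- and Tle4 from 56.8 ± 0.44% to 51.2 ± 0.878%. The summed TLE level per kb was 20.2 ± 0.558 in Alox5-/- and 20.1 ± 0.585 in WT.

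Ctnnbip1, also called ICAT, a small protein that blocks β-catenin from binding TCF, rose from 2.77 ± 0.146 to 3.99 ± 0.022 CPM, a 1.44-fold difference (log2 ratio 0.53, SE 0.11; adjusted p = 0.000921 by edgeR). A gene on the opposite strand covers 25.8% of its exons. Aes, a short TLE relative without the repression domain, was at 276, 314 and 272 CPM in the Alox5-/- cells and 265, 238 and 267 CPM in WT (0.16, SE 0.05; adjusted p = 0.0182 by edgeR). Its high value came from Alox5-/- replicate 2 and its low value from WT replicate 2, and the call was lost without the former (0.0639), without the latter (0.0873) and in the robust fit (0.0868). Ctbp1, another corepressor, was at 140 ± 2.80 and 148 ± 4.11 CPM (-0.09, SE 0.03; adjusted p = 0.0403 by edgeR). Its call was lost without Alox5-/- replicate 1 (0.104) or 3 (0.163), without WT replicate 1 (0.107) or 3 (0.142), with DESeq2 (0.069), with the replicate block (0.0741), under both changed filters (0.099 and 0.0777), with upper-quartile scaling (0.157) and on library totals alone (0.294).

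Genes of the pathway beyond these 45 were grouped into lists. Of 30 other receptors and extracellular regulators, 16 had no count in any library, including Dkk1 to Dkk4 and the Wnt receptors Ror1 and Ror2, and 8 were tested, 3 of which rose and 2 fell (62.5% called, beside 53.8% of all tested genes). Besides Fzd4 and Lgr6, Ryk, a Wnt-binding receptor of the kinase fold, had 4, 4 and 10 counts in Alox5-/- and 29, 28 and 31 in WT, a WT to Alox5-/- ratio of 4.51 with a 95% counting interval of 2.69 to 7.96, and passed the filter through its WT counts alone. Vangl2, a planar polarity protein, rose from 2.30 to 3.91 CPM (adjusted p = 0.000365 by edgeR). Of 40 other intracellular regulators, 33 were tested, 7 rose and 10 fell (51.5% called, beside 53.8% of all tested genes). The casein kinase Csnk1e rose by 0.83 on the log2 scale and the β-catenin-degrading ligase Siah1a by 0.61, while the ATPase Ruvbl1 fell by 0.37 and the remodeller Smarca4 fell by 0.26.

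Genes known as Wnt targets in other tissues moved both ways. Of 25 listed, 15 were tested, 5 rose and 7 fell. These 12 called genes were 80% of those tested, beside 53.8% of all tested genes (26.8% higher and 27.0% lower), a difference that was not tested. Those with the smallest p were Cdkn1a, the cell cycle inhibitor p21 (log2 ratio -0.76), Vegfa, a vascular growth factor (0.66), Jun, a subunit of AP-1 (0.93), and Plaur, the urokinase receptor (-0.39). All of these genes also respond to other pathways. Mitf, Myc and Ppard were also called higher, and Fosl1, Birc5, Cd44, Id2 and Sox4 lower. The cyclins Ccnd1 and Ccnd2, named after their values were seen, were not called (-0.45, SE 0.32, and 0.05, SE 0.03).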

How the data were processed

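Poly-A RNA of 6 mouse libraries had been amplified with the SMARTer kit and sequenced. The authors deposited raw read counts per gene; HTSeq, mm10 and DESeq2 are named in the submitters' processing notes. Not given in the sources used here: aligner, tool versions, annotation release, strand setting. Rows that name no gene entered neither library sizes nor tests; genes held 59.95 to 60.9% of the reads, and multiply aligned reads 24.4 to 24.8%. Reads of near-identical gene copies therefore largely went uncounted.

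Genes passing edgeR's default filter were tested with edgeR 4.0.16 in R 4.3.3 (TMM scaling, quasi-likelihood F-test, no covariate, Benjamini-Hochberg adjustment over all tested genes, threshold 0.05). SEs derive from the coefficient and its F statistic. The code was tested on simulated data. Levels per kb divide CPM by the summed exon length of GENCODE vM21 (all isoforms), so they depend on the isoform in use. Alternatives were DESeq2 1.42.0, limma-voom (limma 3.58.1), other scalings and filters, a robust fit, a test against 1.2-fold, the replicate block, and each library left out. The labels do not say whether the replicate numbers pair the libraries. Same-numbered deviations correlated at -0.02, -0.08 and 0.02, which shows no strong shared effect but cannot decide whether they were paired by design. Every pair of libraries differed by more than sampling noise (chi-square divided by its degrees of freedom was at least 2.18).

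The 45 genes, their roles and the other lists were chosen with earlier results of these data known. Named are all 45, with values per library for those called at 1.5-fold or more, Ctnnb1, called genes with overlapping libraries and, added after their values were seen, Wls, Lgr4, Fzd1, Fzd7, Bcl9 and Aes; also Alox5, and up to 4 called genes of each list by smallest p. Further genes of the target and stromal lists were named after their values were seen. Where 2 gene identifiers share a symbol in a list, the one with more counts was used.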

Additional observations from a re-analysis of the deposited data

How the results depend on the processing

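No tested gene of the 45 changed sign under any of the 16 alternatives run. Of the 28 called, 19 stayed called under all of them in which they were tested, except the test against a 1.2-fold change, and 11 under that test too; the other 9 (Aes, Btrc, Ctbp1, Ctnnb1, Dvl1, Dvl2, Pygo2, Tcf7l2, Tle4) were lost in at least 1 alternative, the losses on leaving out a library being given beside their values. Both the 19 and the 11 include Fzd6 and Fzd8, which passed the filter through WT alone. The replicate block called 7029 genes, 13 of the 45 higher and 11 lower, and with it Dvl1, Dvl2, Tcf7l2 and Ctbp1 were not called. Testing against 1.2-fold left 2450 of 7379 calls among the 13705 tested genes. Of the 39 tested genes of the 45, it left 6 higher and 5 lower. Of the intracellular regulators it left 2 higher and 1 lower, and of the targets 3 higher and 4 lower. Library totals alone left 6 intracellular regulators lower. With no filter 2 Wnt ligands were lower; the stricter filter, with fewer genes tested, left 0 ligands lower, and 0 of the other receptors higher and 1 lower. Leaving out a library gave 6583 to 7251 calls, 12 to 14 of the 45 higher and 10 to 13 lower, and 0 to 1 Wnt ligands higher, the 1 being without WT replicate 1. Without division by length, the difference in share (Alox5-/- minus WT) of Fzd9 among the 7 Frizzled genes turned from -0.0472 to 0.0128 percentage points and that of Tcf7 among TCF/LEF from 0.921 to -0.0122, both within the spread of libraries. Depth limits Fzd6, Fzd8, Fzd9, Nkd1, Porcn and Fzd2, whose groups hold few counts.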
